A study of Rattus norvegicus with 18 samples.

Results

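The transcripts of 9 neurotrophic and growth factors were followed by their gene symbols through 18 RNA sequencing libraries of rat glia. The factors were Bdnf, Gdnf, Ntf3, Cntf, Igf1, Vegfa, Fgf2, Hbegf and Pdgfa. All 9 were listed in the count tables, among 17307 symbols for astrocytes and 17327 for microglia. The libraries came from primary cultures of wild type (WT) Sprague-Dawley rat cortex, taken at postnatal day 2, and each cell type had 3 libraries per condition. Control cultures received no fibrils, whereas the treated cultures received fibrils of amyloid β-protein 42 (Aβ42) or 40 (Aβ40), the 2 main lengths of the peptide that deposits in Alzheimer's disease, at 25 µM for 24 h in serum-free medium. All 6 groups shared the genotype, the mixed glial flasks and the serum-free medium. Microglia were the cells shaken off the flasks and astrocytes the adherent layer left after a longer shake to remove oligodendrocyte precursors, so cell type and isolation step cannot be told apart. The labels do not say whether the 3 libraries of a group were separate cultures, so the p-values below measure only the spread between these libraries.

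Each of these proteins signals to neighbouring cells by binding receptors at the cell surface. BDNF and NT-3 (Ntf3) are neurotrophins that act through Trk receptors, GDNF acts through GFRα co-receptors and Ret, and CNTF is an interleukin-6 family cytokine that needs CNTFRα, LIFR and gp130. IGF-1, VEGF-A, FGF-2, HB-EGF and PDGF-A bind receptor tyrosine kinases that control survival, proliferation, vessel growth and glial development. In the brain, astrocytes are a known source of CNTF and FGF-2, and microglia of the developing brain are a known source of IGF-1.

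Gene counts per library ranged from 3674043 to 19013919 in astrocytes and from 2271834 to 22274367 in microglia. Levels are given as scaled CPM, the counts of a gene relative to those of all genes of its library that passed the filter on low counts. They were scaled among the 9 libraries of the same cell type unless another scale is named. The sum of 8 astrocyte markers was 8517 to 10216 CPM in control astrocytes and 195 to 219 CPM in control microglia, and the sum of 8 microglial markers was 238 to 279 CPM and 5053 to 5817 CPM, so both labels held. Of 7 oligodendrocyte lineage markers the sum was 1507 to 2362 CPM in control astrocytes and 1850 to 2040 CPM in control microglia, and their part in the results below was not tested. In bulk RNA, fewer cells of a type and less RNA per cell cannot be told apart. A library of astrocyte controls (replicate 2) and one of Aβ42 microglia (replicate 1) lay farthest from their group mates. Where the call of a member that was tested with all libraries changes without one of them, the value without it is given. A gene was called when its Benjamini-Hochberg adjusted p in edgeR's quasi-likelihood test was under 0.05, with adjustment over all genes tested (11690 in astrocytes, 10837 in microglia, 11581 in the fit of all 18 libraries).

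The DNA just before the annotated transcription start is shown for Igf1 and Vegfa, which had the greatest log2 fold changes of the members that passed the filter on low counts, and for Cntf, the member called in astrocytes and not in microglia under both fibrils. The sequences are those of RefSeq for GRCr8, a later build than the rn5 genome named in the submitters' processing notes, and each is 250 bases read 5′ to 3′ on the gene's strand. The Igf1 window (chr7:24172282-24172531, plus strand) begins 2674 bases inside the annotated gene. The Vegfa window (chr9:22452604-22452853, plus strand) and the Cntf window (chr1:219314536-219314785, minus strand) end where their genes begin. Capitals mark a match to 1 of 4 motifs searched on both strands.
Igf1: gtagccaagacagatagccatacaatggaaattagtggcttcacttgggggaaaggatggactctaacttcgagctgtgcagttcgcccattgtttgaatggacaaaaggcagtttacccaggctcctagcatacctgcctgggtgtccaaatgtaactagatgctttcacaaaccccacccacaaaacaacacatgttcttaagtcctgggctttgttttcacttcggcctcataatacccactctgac
Vegfa: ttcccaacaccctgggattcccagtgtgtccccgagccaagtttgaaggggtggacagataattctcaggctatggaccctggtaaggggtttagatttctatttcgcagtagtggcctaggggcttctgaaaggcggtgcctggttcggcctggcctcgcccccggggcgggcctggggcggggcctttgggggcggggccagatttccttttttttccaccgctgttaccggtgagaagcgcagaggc
Cntf: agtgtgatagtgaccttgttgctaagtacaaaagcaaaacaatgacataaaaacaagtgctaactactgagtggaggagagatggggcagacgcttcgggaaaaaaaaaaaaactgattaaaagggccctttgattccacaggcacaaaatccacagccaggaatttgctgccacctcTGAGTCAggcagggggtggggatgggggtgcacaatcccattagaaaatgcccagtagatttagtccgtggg
The Cntf window held an AP-1 motif (TGANTCA) beginning 72 bases before the start, and 6.34% of all 33469 windows of this length held that motif. The Igf1 and Vegfa windows held none of the letters of the AP-1, CRE (TGACGTCA), hypoxia response (ACGTG) or NF-κB motifs, of which the last 3 were present in 1.59%, 16.6% and 1.08% of all windows. The 9 members had 17 such windows in all, because Bdnf, Ntf3 and Vegfa have several annotated starts, and the other matches lay in windows of Bdnf, Gdnf and Fgf2. The ACGTG letters began 51 bases before the Gdnf start, 76 bases before the Fgf2 start, 183 and 90 bases before one Bdnf start and 37 bases before another, and an AP-1 match began 152 bases before a further Bdnf start.

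The 9 factors separated into a group with clear signal and a group near the limit of detection (plot of levels by library). Counts were high enough for a test of 6 members in astrocytes (Cntf, Igf1, Vegfa, Fgf2, Hbegf and Pdgfa) and of 5 in microglia, where Fgf2 also fell short. Bdnf, Gdnf and Ntf3 did not pass the filter on low counts in either cell type.

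**Figure D1:**
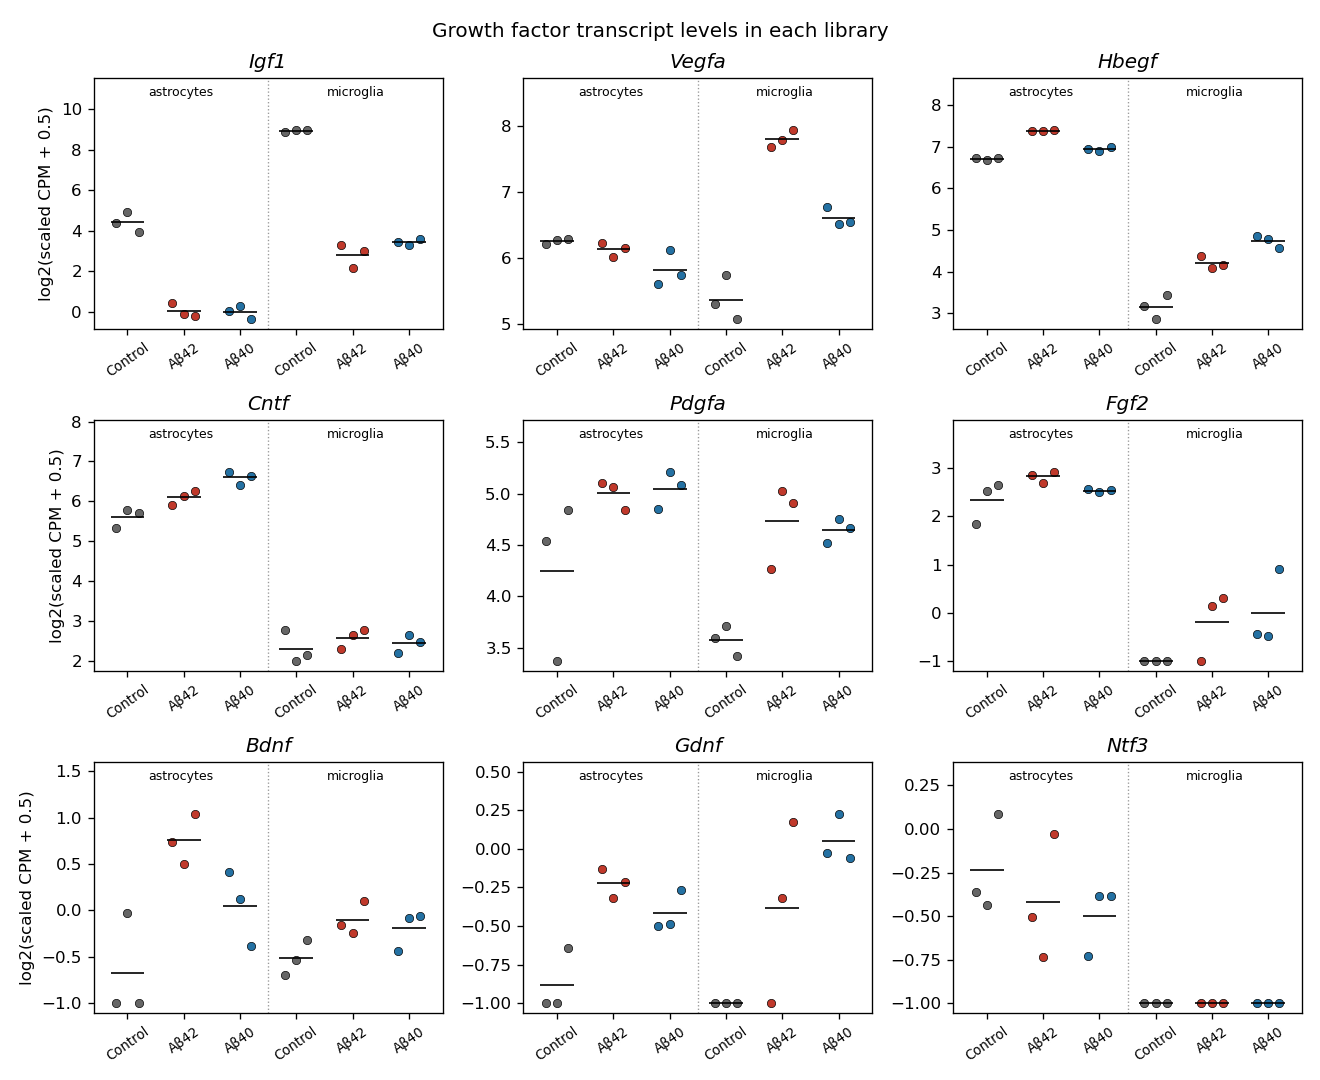
Level of each of the 9 factors in every library, as log2 of scaled CPM plus 0.5 on the vertical axis, with control, Aβ42 and Aβ40 libraries of astrocytes at left and of microglia at right in each panel. Points are single libraries (3 per group), bars are means of the log2 values, and each vertical axis has its own range. Igf1 is lower in all fibril-treated libraries of both cell types, Vegfa is higher with fibrils in microglia, and Ntf3 is at 0 in all 9 microglial libraries.

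Untreated cells were compared first, to ask which glial type carried which factor. On the scale of all 18 libraries, Cntf, Hbegf and Fgf2 were higher in control astrocytes and Igf1 was higher in control microglia, whereas Vegfa and Pdgfa differed by less. Of the 6 members tested, 5 were higher in astrocytes and 1 was lower, beside 34.5% of all genes tested that were higher and 34.2% that were lower. At a fold of 5 or more, 3 members were higher and 1 lower, beside 11.4% and 8.56% of genes. Fgf2, which is in both counts of higher members, passed the filter only through its astrocyte libraries. The tables of the cell types share 16704 symbols but are not listed alike (one gene stands under an older symbol in microglia), so a difference in the annotation used for counting cannot be told apart from cell type.

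Igf1, the ligand of the IGF-1 receptor, was 19.4, 27.6 and 13.8 CPM in control astrocytes and 524, 562 and 566 CPM in control microglia on that scale. All microglial libraries were above all astrocyte libraries, and the astrocyte level was 28.0-fold lower (log2 difference -4.81, SE 0.26, edgeR adjusted p = 4.77e-12). The mean in astrocytes was 3.68% of the microglial mean. On the same scale the sum of the 8 microglial markers in control astrocytes was 4.18% of that in control microglia, and the part of microglia in the astrocyte cultures in this level was not tested.

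Cntf was 37.4, 50.8 and 48.2 CPM in astrocytes and 7.07, 3.89 and 4.38 CPM in microglia (8.65-fold higher, log2 difference 3.11, SE 0.21, edgeR adjusted p = 1.58e-10). Hbegf, which encodes a membrane-anchored ligand of the EGF receptor, was 99.2, 95.2 and 97.4 CPM in astrocytes and 9.56, 7.55 and 11.5 CPM in microglia (10.1-fold higher, log2 difference 3.34, SE 0.14, edgeR adjusted p = 1.41e-13). Neither gene overlapped between the cell types. Fgf2, a heparin-binding mitogen, had 115 counts over the 3 control astrocyte libraries and none over the 3 control microglia. It was 29.5-fold higher in astrocytes when the microglia are set at 3 counts over the group, a floor that covers counting error in the microglia only.

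Vegfa, which drives vessel growth and permeability, was 69.3, 72.5 and 71.7 CPM in control astrocytes and 43.4, 59.4 and 36.8 CPM in control microglia, a 1.54-fold difference without overlap (log2 difference 0.62, SE 0.16, edgeR adjusted p = 0.00229). Pdgfa, a mitogen of oligodendrocyte precursors, was 21.5, 9.21 and 26.0 CPM in astrocytes and 12.8, 14.0 and 11.3 CPM in microglia. The Pdgfa groups overlapped because of astrocyte replicate 2, and its call (log2 difference 0.62, SE 0.27, edgeR adjusted p = 0.0471) held without that library but was lost on leaving out any one of the other 5 control libraries (edgeR adjusted p 0.0615 to 0.449) and without the filter on low counts (0.0520).

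In the astrocyte cultures, Igf1 was called lower and Cntf higher with both fibrils, though the Cntf call with Aβ42 did not hold in all fits. Hbegf was called higher with Aβ42 only, while its Aβ40 libraries also lay above the controls. With Aβ42, 2 of the 6 tested members rose and 1 fell, beside 16.5% and 20.4% of all genes tested. With Aβ40, 1 rose and 1 fell, beside 14.9% and 18.4% of genes. Igf1 alone passed a fold of 5 with either fibril, beside 3.24% of genes lower at that fold with Aβ42 and 2.6% with Aβ40. Both fibril groups were compared with the same 3 control libraries. Over the same libraries the summed astrocyte markers went from 8517 to 10216 CPM in controls to 5499 to 5765 CPM with Aβ42 and 6086 to 6416 CPM with Aβ40. The markers did not move alike: the means of Gfap, Slc1a3, Gja1, S100b and Sox9 fell. Aqp4 rose (means of 1497, 1980 and 2164 CPM), as did Slc1a2 (5.38, 15.0 and 14.1 CPM) and Aldh1l1 (38.7, 123 and 106 CPM). The part of these shifts in the member results was not tested.

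Astrocyte Igf1 was 20.6, 29.4 and 14.9 CPM in the controls, 0.824, 0.404 and 0.360 CPM with Aβ42 and 0.520, 0.695 and 0.266 CPM with Aβ40. Every treated library lay far below the lowest control, and the treated libraries held between 3 and 13 counts each. The decrease was 36.4-fold with Aβ42 (log2 fold change -5.18, SE 0.39, edgeR adjusted p = 1.98e-06) and 41.1-fold with Aβ40 (-5.36, SE 0.38, edgeR adjusted p = 1.47e-06). The Aβ42 and Aβ40 libraries overlapped (log2 difference 0.18, 95% interval -1.09 to 1.44).

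Microglial markers moved with Igf1 in the astrocyte cultures. Their summed level went from 238 to 279 CPM in controls to 18.02 to 23.1 CPM with Aβ42 and 14.2 to 16.9 CPM with Aβ40, a mean ratio of control to treated of 13.1 and 17.3, where the same ratio for Igf1 was 40.9 and 43.9. Csf1r, the receptor that microglia need for survival, averaged 124 CPM in control astrocyte cultures, 4.97 CPM with Aβ42 and 2.95 CPM with Aβ40. The markers fell to unlike degrees, which the sum hides. C1qa averaged 47.3, 0.329 and 0.246 CPM and Itgam 16.2, 7.23 and 5.45 CPM. Cx3cr1 averaged 26.0, 0.0229 and 0.0400 CPM, with at most 1 count in any treated library. None of the 8 markers was at 0 in all libraries of a group. The part of microglia in the astrocyte Igf1 result was not tested.

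**Figure D2:**
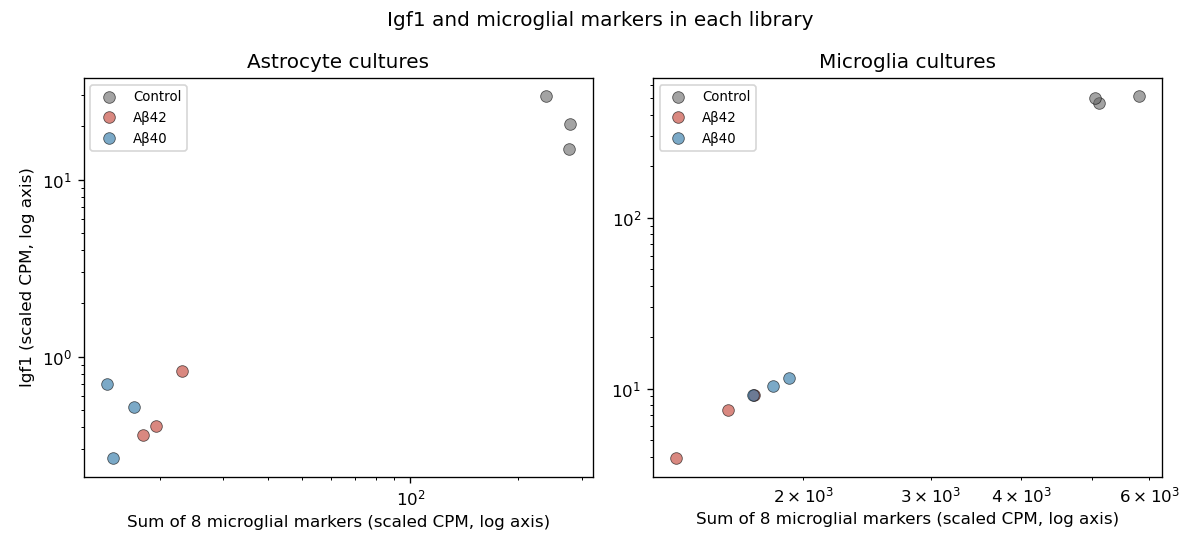
Igf1 (vertical axis, scaled CPM, log axis) against the sum of 8 microglial markers (horizontal axis, scaled CPM, log axis) in each library, with astrocyte cultures at left and microglia cultures at right. Each point is 1 library, 1 Aβ42 and 1 Aβ40 point coincide near 9.2 CPM in microglia, and the panels have different axis ranges. In both cell types the 6 fibril-treated libraries sit below and to the left of the 3 controls, with marker sums of 14.2 to 23.1 CPM in treated astrocyte cultures and 1337 to 1915 CPM in treated microglia.

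Astrocyte Cntf was 39.8, 54.1 and 52.1 CPM in controls, 60.0, 70.2 and 75.9 CPM with Aβ42 and 107, 84.3 and 99.5 CPM with Aβ40. The 3 groups did not overlap, with controls lowest and Aβ40 highest. The rise was 1.98-fold with Aβ40 (log2 fold change 0.99, SE 0.16, edgeR adjusted p = 7.03e-04) and held on leaving out each library. The rise was 1.40-fold with Aβ42 (log2 fold change 0.49, SE 0.16, edgeR adjusted p = 0.0336), and that call was lost without control replicate 1, Aβ42 replicate 2 or Aβ42 replicate 3 (edgeR adjusted p 0.103, 0.0994 and 0.126), with library totals (0.0795) and with the compared groups alone (0.0688). Between the fibrils the log2 difference was -0.50 (95% interval -0.84 to -0.15) and did not pass (edgeR adjusted p = 0.383).

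Astrocyte Hbegf was 105, 101 and 105 CPM in controls, 165, 167 and 170 CPM with Aβ42 and 122, 119 and 126 CPM with Aβ40. The libraries of each group lay close together and the 3 groups did not overlap. The rise with Aβ42 was 1.61-fold (log2 fold change 0.68, SE 0.10, edgeR adjusted p = 3.36e-04). With Aβ40 the log2 fold change was 0.23 (SE 0.10, 95% interval 0.01 to 0.46) and did not pass (edgeR adjusted p = 0.103), whereas DESeq2's Wald test called it (adjusted p = 0.0403). Between the fibrils the log2 difference of 0.45 (SE 0.10) did not pass (edgeR adjusted p = 0.173), whereas it passed in edgeR with the compared groups alone (0.0155) and by DESeq2's Wald test (adjusted p = 1.97e-04).

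The other 3 tested members did not pass in astrocytes. Vegfa was 73.8, 77.3 and 77.5 CPM in controls, 74.4, 64.6 and 70.9 CPM with Aβ42 (log2 fold change -0.12, 95% interval -0.45 to 0.20) and 48.3, 69.1 and 53.4 CPM with Aβ40 (log2 fold change -0.42, 95% interval -0.75 to -0.09). All 3 Aβ40 libraries were below all controls, at an edgeR adjusted p of 0.0514 that became 0.0481 with DESeq2 size factors and 0.0359 with library totals, and DESeq2's Wald test called it (adjusted p = 0.0280). It also passed without control replicate 2 (-0.40, edgeR adjusted p = 0.0391) and without Aβ40 replicate 2 (-0.57, 0.0136), and over all fits with a library left out the edgeR adjusted p reached 0.188. Fgf2 was 3.06, 5.27 and 5.77 CPM in controls, 6.73, 5.96 and 7.09 CPM with Aβ42 (log2 fold change 0.41, 95% interval -0.07 to 0.88) and 5.40, 5.14 and 5.31 CPM with Aβ40 (0.09, 95% interval -0.39 to 0.56).

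Astrocyte Pdgfa was 22.8, 9.81 and 28.1 CPM in controls, 33.8, 33.1 and 28.2 CPM with Aβ42 and 28.3, 36.6 and 33.4 CPM with Aβ40. The controls spread most, since replicate 2 was the low one, and every treated library was above every control, the nearest pair at 28.2 and 28.1 CPM. The log2 fold changes of 0.61 (SE 0.29, edgeR adjusted p = 0.123) and 0.66 (SE 0.28, edgeR adjusted p = 0.102) did not pass. They were 0.30 and 0.34 without control replicate 2 (edgeR adjusted p = 0.121 and 0.0794) and 0.98 and 1.03 without control replicate 3, where alone of the libraries left out both passed (edgeR adjusted p = 0.0267 and 0.0228). Between Aβ42 and Aβ40 in astrocytes edgeR called 0 of the 6 members (Hbegf and Cntf had an unadjusted p under 0.05, so 1 member in each direction, and DESeq2's Wald test called 1, Hbegf), beside 0.0855% of all genes in either direction, 10 genes in all.

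In microglia, fibrils lowered Igf1 and raised Vegfa, Hbegf and Pdgfa. With Aβ42, 3 of the 5 tested members rose and 1 fell, beside 27.1% and 26.6% of all genes tested. With Aβ40 the counts were again 3 and 1, beside 19.6% and 21.4%. At a fold of 5 or more, Igf1 was lower with both fibrils, beside 2.57% of genes with Aβ42 and 2.47% with Aβ40, and Vegfa was higher with Aβ42, beside 3.69% of genes. These 2 comparisons also shared their control libraries. Summed markers of fibroblasts, the oligodendrocyte lineage and neurons were higher in the treated libraries as well, whereas those of astrocytes were not. The sum of 8 astrocyte markers went from 195 to 219 CPM in controls to 153 to 185 CPM with Aβ42 and 202 to 209 CPM with Aβ40. That of 4 endothelial markers went from 9.27 to 10.8 CPM to 6.11 to 14.4 CPM and 15.2 to 23.9 CPM. The sum of 5 fibroblast markers went from 55.4 to 67.8 CPM in controls to 134 to 162 CPM with Aβ42 and 119 to 125 CPM with Aβ40. Among them Dcn went from a mean of 0.427 CPM to 71.1 CPM and 64.6 CPM and Lum from 1.31 CPM to 7.05 CPM and 6.47 CPM. The collagens did not move with them: Col3a1 fell from 15.95 CPM to 8.92 CPM and 3.36 CPM, Col1a1 averaged 44.9, 63.5 and 47.0 CPM and Col1a2 0.388, 0.632 and 0.0804 CPM. The oligodendrocyte lineage sum went from 1850 to 2040 CPM to 2107 to 2770 CPM and 2142 to 2594 CPM. Its Cspg4 was at means of 8.13, 37.7 and 22.4 CPM, Mbp at 881, 913 and 938 CPM and Mog at 5.97, 2.80 and 4.20 CPM. The sum of 4 neuronal markers went from 151 to 168 CPM to 204 to 226 CPM and 195 to 213 CPM. Of these markers only the endothelial Cldn5 was at 0 in all libraries of a group. The part of such cells in the member results was not tested. Cntf was not called, at 6.36, 3.48 and 3.97 CPM in controls, 4.40, 5.76 and 6.39 CPM with Aβ42 and 4.10, 5.82 and 5.06 CPM with Aβ40.

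Microglial Igf1 was 471, 503 and 512 CPM in controls, 9.20, 3.90 and 7.47 CPM with Aβ42 and 10.4, 9.17 and 11.5 CPM with Aβ40. The treated and control libraries were far apart in each case. The decrease was 81.4-fold with Aβ42 (log2 fold change -6.35, SE 0.24, edgeR adjusted p = 1.36e-09) and 48.6-fold with Aβ40 (-5.60, SE 0.24, edgeR adjusted p = 3.95e-09). The fibrils differed by -0.74 on the log2 scale (SE 0.27, edgeR adjusted p = 0.0679), with overlapping libraries, and by -0.87 without Aβ42 replicate 1 (edgeR adjusted p = 0.00772). In these cultures the summed microglial markers went from 5053 to 5817 CPM in controls to 1337 to 1710 CPM with Aβ42 and 1705 to 1915 CPM with Aβ40, while Itgam, the CD11b integrin subunit, averaged 372, 693 and 766 CPM. The part of this shift in the Igf1 result was not tested.

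Microglial Vegfa was 39.0, 53.1 and 33.3 CPM in controls, 205, 220 and 246 CPM with Aβ42 and 109, 91.0 and 92.9 CPM with Aβ40. The 3 groups stood in this order without overlap. The rise was 5.40-fold with Aβ42 (log2 fold change 2.43, SE 0.16, edgeR adjusted p = 1.31e-07) and 2.35-fold with Aβ40 (1.23, SE 0.16, edgeR adjusted p = 6.53e-05). Aβ42 exceeded Aβ40 by 2.30-fold (log2 difference 1.20, SE 0.16, edgeR adjusted p = 0.00429), and this call held on leaving out each library.

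Microglial Hbegf was 8.60, 6.76 and 10.4 CPM in controls, 20.4, 16.5 and 17.3 CPM with Aβ42 and 28.7, 27.3 and 23.4 CPM with Aβ40. Here the Aβ40 libraries were the highest, again without overlap. The rise was 2.03-fold with Aβ42 (log2 fold change 1.02, SE 0.17, edgeR adjusted p = 3.61e-04) and 3.09-fold with Aβ40 (1.63, SE 0.18, edgeR adjusted p = 1.31e-05). Aβ42 was lower than Aβ40 (log2 difference -0.61, SE 0.16, edgeR adjusted p = 0.0301), but this call was lost without any one of Aβ42 replicates 2 and 3 and the 3 Aβ40 libraries (edgeR adjusted p 0.0717 to 0.146) and with the compared groups alone (0.0701).

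Microglial Pdgfa was 11.5, 12.6 and 10.2 CPM in controls, 18.8, 32.0 and 29.5 CPM with Aβ42 and 22.4, 26.4 and 24.8 CPM with Aβ40. All treated libraries were above all controls. The rise was 2.46-fold with Aβ42 (log2 fold change 1.30, SE 0.18, edgeR adjusted p = 8.48e-05) and 2.15-fold with Aβ40 (1.10, SE 0.20, edgeR adjusted p = 6.85e-04). Between Aβ42 and Aβ40 in microglia 1 of 5 members was higher (Vegfa) and 1 lower (Hbegf), beside 11.3% and 9.01% of genes. Without Aβ42 replicate 1, the lowest of the Aβ42 libraries for Pdgfa, 2 were higher and 2 lower, since Pdgfa (log2 difference 0.32, edgeR adjusted p = 0.0347) and Igf1 were then called too.

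**Figure D3:**
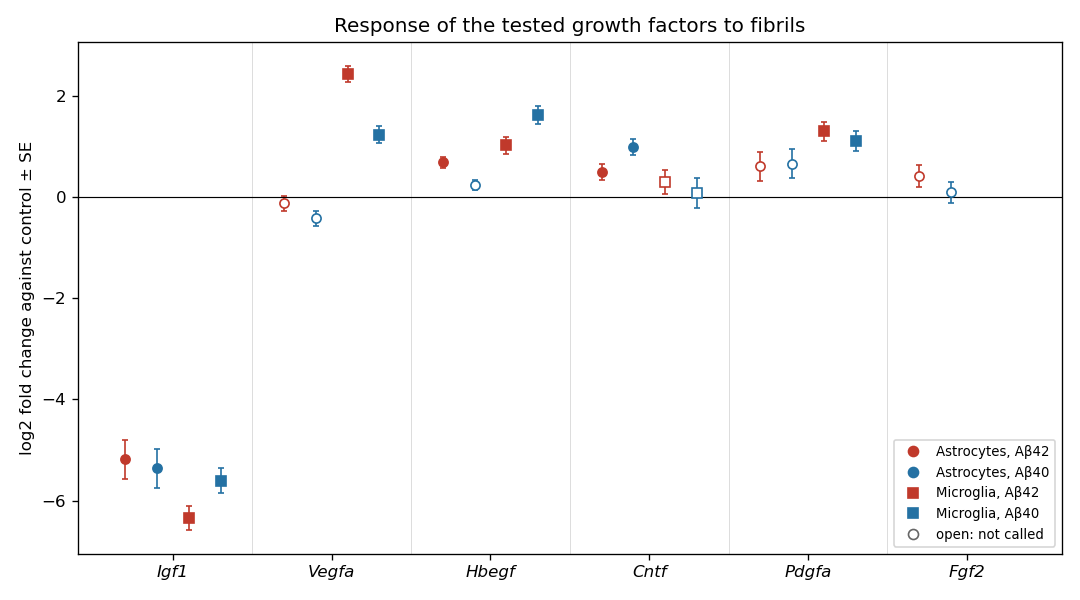
Log2 fold change against control (vertical axis, bars ± SE) of the 6 tested factors in astrocytes (circles) and microglia (squares) with Aβ42 (red) and Aβ40 (blue), 3 libraries per group. Filled symbols passed an edgeR adjusted p of 0.05 and open symbols did not. Igf1 lies between -5.18 and -6.35 in all 4 comparisons, and Vegfa reaches 2.43 and 1.23 in microglia against -0.12 and -0.42 in astrocytes.

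Whether the responses differed between the cell types was tested as an interaction in the fit of all 18 libraries. The Vegfa response was lower in astrocytes than in microglia by 2.55 on the log2 scale with Aβ42 (difference -2.55, SE 0.23, edgeR adjusted p = 6.58e-08) and by 1.63 with Aβ40 (-1.63, SE 0.23, edgeR adjusted p = 1.91e-05), and both held on leaving out each library. The Hbegf response was lower in astrocytes with Aβ40 (-1.38, SE 0.19, edgeR adjusted p = 1.49e-05), and with Aβ42 its difference was -0.34 (95% interval -0.73 to 0.05). The Cntf response was higher in astrocytes with Aβ40 (0.93, SE 0.33, edgeR adjusted p = 0.0362), a call that was lost on leaving out any one of 6 libraries (edgeR adjusted p 0.0612 to 0.209) and with library totals (0.0573), and with Aβ42 its difference was 0.19 (95% interval -0.42 to 0.81).

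The Igf1 responses did not pass this test with Aβ42 (difference 1.16, 95% interval -0.04 to 2.37, edgeR adjusted p = 0.122) or with Aβ40 (0.27, 95% interval -1.01 to 1.55). Without astrocyte control replicate 2 the Aβ42 difference passed for Igf1 (1.505, edgeR adjusted p = 0.0277). Pdgfa differed by -0.68 (95% interval -1.43 to 0.08) and -0.43 (95% interval -1.21 to 0.34), and without the same library both passed (-1.01 and -0.74, edgeR adjusted p = 0.00244 and 0.0306). For Fgf2 the fitted differences rest on microglial controls at 0 and are no measure of size, though edgeR called them. In all, 0 members had a higher and 2 a lower response in astrocytes with Aβ42, beside 17.9% and 19.3% of genes, and 1 and 3 with Aβ40, beside 16.5% and 16% of genes. Fgf2 is one of the lower members in both counts, and without it they are 1 with Aβ42 (Vegfa) and 2 with Aβ40 (Vegfa and Hbegf). DESeq2's Wald test also called 0 members higher with Aβ42, and 0 had a positive difference at an unadjusted edgeR p under 0.05.

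The order of the 2 fibrils for Hbegf, with Aβ42 above Aβ40 in astrocytes and below it in microglia, was examined by an interaction term added after the data were seen. The Aβ42 to Aβ40 difference in astrocytes exceeded that in microglia by 1.03 on the log2 scale (SE 0.18, edgeR adjusted p = 0.0144), and Hbegf was the 1 of 6 members called, beside 0.216% of genes higher and 0.173% lower. The difference stayed between 0.97 and 1.10 with each library left out, but the call held in only 4 of these 12 fits (edgeR adjusted p up to 0.0829). Vegfa differed in the opposite direction by -0.91 (SE 0.22) and did not pass (edgeR adjusted p = 0.0742), and it passed in edgeR without microglia Aβ42 replicate 1 (-0.99, adjusted p = 0.0110) and by DESeq2's Wald test (adjusted p = 0.0114).

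Bdnf, Gdnf and Ntf3, the classical neurotrophic factors of the set, were rarely counted. Bdnf had 0, 2 and 0 counts in control astrocytes, 17, 9 and 13 with Aβ42 and 8, 11 and 4 with Aβ40. Every treated library had more counts than every control, but the 3 astrocyte controls include the 2 shallowest astrocyte libraries. On the scaled levels control replicate 2 (0.479 CPM) lay above Aβ40 replicate 3 (0.266 CPM), so the Aβ40 and control libraries overlapped, whereas all Aβ42 libraries (0.910 to 1.56 CPM) were above all controls. Pooled over the group and scaled, Bdnf was 13.1-fold higher with Aβ42 (exact 95% counting interval 3.39 to 112) and 5.83-fold higher with Aβ40 (1.44 to 51.0). Fitted without the filter on low counts, edgeR called the Aβ42 rise (adjusted p = 0.00760), beside 14% of all genes higher in that fit, and did not call the Aβ40 difference (adjusted p = 0.0941), beside 12.5% of genes. With the filter but without control replicate 2, the only control with Bdnf counts, edgeR called 2 members higher with Aβ40 in place of 1. The added member was Bdnf, Gdnf or Ntf3, and its value is not reported here.

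In microglia Bdnf had 1, 1 and 2 counts in controls, 1, 8 and 10 with Aβ42 and 1, 2 and 1 with Aβ40, which on the scaled levels was at most 0.570 CPM. Gdnf had 0, 0 and 2 counts in control astrocytes, 6, 3 and 3 with Aβ42 and 2, 4 and 5 with Aβ40, with pooled ratios of 4.02 (exact 95% counting interval 0.896 to 37.0) and 2.79 (0.608 to 25.9) that include no change. In microglia Gdnf had no count in any control, 0, 7 and 11 with Aβ42 and 2, 3 and 1 with Aβ40. The pooled levels were 2.81-fold and 3.75-fold above a floor of 3 counts over the control group. This floor leaves out the counting error of the treated libraries, so these ratios are no lower bounds. Ntf3 had 1, 1 and 8 counts in control astrocytes, 3, 1 and 4 with Aβ42 and 1, 5 and 4 with Aβ40, and no count in any of the 9 microglial libraries, which allows up to 0.148 CPM over the microglial controls. Fgf2 in microglia had 0 counts in the controls, 0, 14 and 13 with Aβ42 and 1, 1 and 3 with Aβ40. Its pooled levels were 4.22-fold and 3.12-fold above the same floor, with the same limit. Without the filter, edgeR called Gdnf and Fgf2 higher in microglia with both fibrils, so that 5 members were higher with each, beside 23% of all genes in that fit with Aβ42 and 15.6% with Aβ40, and both added calls rest on controls at 0 counts.

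The other ligands of the 8 families, 33 in each cell type's tables, were read from a list of 92 pathway genes. In astrocytes 8 of 21 tested ligands rose and 5 fell with Aβ42, beside 16.5% and 20.4% of all genes (median log2 fold change 0.61, beside -0.00 over all genes tested), and 7 rose and 3 fell with Aβ40, beside 14.9% and 18.4% (median 0.47). In microglia 9 of 13 rose and 2 fell with Aβ42, beside 27.1% and 26.6% (median 1.12), and 8 rose and 2 fell with Aβ40, beside 19.6% and 21.4% (median 1.39). Epiregulin (Ereg), an EGF receptor ligand like HB-EGF, was called higher in all 4 comparisons. In astrocytes it had 0 counts over the controls and was 19.2-fold with Aβ42 and 5.41-fold with Aβ40 above a floor of 3 counts over the controls. In microglia its pooled counts went from 2 in controls to 638 with Aβ42 and 130 with Aβ40, ratios of 149.6 (exact 95% counting interval 41.2 to 1238) and 122 (33.1 to 1017). Ereg in both cell types and Lif, a ligand of the CNTF family, in microglia had at most 2 counts over the controls. They passed the filter only through treated libraries, so they could enter the ligand counts and medians only as higher. Another 12 ligands in astrocytes and 20 in microglia did not pass the filter.

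Among the ligands, Lif belongs to the family of Cntf and was chosen for description after its values were seen. Lif, which shares gp130 and LIFR with CNTF, was 5.29, 5.74 and 4.43 CPM in control astrocytes, 93.2, 83.6 and 98.5 CPM with Aβ42 and 45.2, 46.5 and 48.4 CPM with Aβ40. Between Aβ42 and Aβ40 in astrocytes, Lif passed (log2 difference 0.97, SE 0.13, edgeR adjusted p = 0.0208). It was the only one of the 71 listed genes tested that edgeR called there, beside 0.0855% of all genes in either direction.

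Ligands also fell. Igf2, the second IGF ligand, averaged 9.84 CPM in control astrocytes, 3.65 CPM with Aβ42 and 3.96 CPM with Aβ40 (log2 fold changes -1.39 and -1.28, edgeR adjusted p = 3.24e-04 and 5.26e-04), the lowest log2 fold change of the called ligands there. In microglia Igf2 rose instead, from a mean of 25.1 CPM to 48.1 CPM and 40.0 CPM (edgeR adjusted p = 0.00164 and 0.0291). Pdgfb, the partner of PDGF-A in the AB dimer, averaged 11.8 CPM in control microglia, 1.53 CPM with Aβ42 and 1.07 CPM with Aβ40 (log2 fold changes -2.60 and -3.50, edgeR adjusted p = 4.28e-06 and 1.25e-05), the lowest of the ligands in microglia. IGF binding proteins split likewise: Igfbp3 rose in astrocytes from a mean of 60.3 CPM to 500.1 CPM with Aβ42 and 318 CPM with Aβ40, Igfbp6 was the called binding gene with the lowest log2 fold change there (-2.28 and -1.64), and in microglia Igfbp7 rose (2.59 and 2.18) and Igfbp4 fell (-3.43 and -3.73).

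Receptors moved in both directions. In astrocytes 7 of 29 tested receptors rose and 10 fell with Aβ42, and 7 rose and 9 fell with Aβ40, with median log2 fold changes of 0.02 and -0.16, beside 16.5% and 20.4% of all genes with Aβ42 and 14.9% and 18.4% with Aβ40. In microglia 10 of 29 rose and 11 fell with Aβ42, and 13 rose and 7 fell with Aβ40, with medians of 0.00 and 0.19, beside 27.1% and 26.6% of all genes with Aβ42 and 19.6% and 21.4% with Aβ40.

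Receptors of the neurotrophins and of GDNF were mostly lower with fibrils in astrocytes. TrkB (Ntrk2), the BDNF receptor, averaged 2233 CPM in control astrocytes, 1273 CPM with Aβ42 and 1248 CPM with Aβ40, log2 fold changes of -0.81 and -0.84 (edgeR adjusted p = 1.09e-04 and 9.64e-05). TrkC (Ntrk3), which binds NT-3, fell by 1.39 and 1.45 on the log2 scale, and Sort1, which binds proneurotrophins, fell by 0.77 and 0.63. All 4 tested GDNF family receptors fell in astrocytes with both fibrils: Gfra1 fell by 1.81 and 1.74, Ret by 1.55 and 1.37, Ncam1 by 1.05 and 1.06 and Gfra2 by 0.58 and 0.63. In the same cultures the oligodendrocyte lineage sum went from 1507 to 2362 CPM in controls to 1143 to 1249 CPM with Aβ42 and 1219 to 1254 CPM with Aβ40, with Olig1 at means of 588, 218 and 199 CPM. The fibroblast sum went from 168 to 189 CPM to 63.7 to 85.3 CPM and 105 to 123 CPM, and the neuronal sum from 38.8 to 61.2 CPM to 23.2 to 32.3 CPM and 28.0 to 33.2 CPM. None of these markers was at 0 in all libraries of a group, and the part of such cells in the receptor results was not tested. In microglia Gfra1 did not pass with Aβ42 (0.10) and rose with Aβ40 (0.63), as did Ncam1 (0.23 and 0.81), whereas Sort1 fell by 2.87 and 2.56 and the p75 receptor Ngfr rose by 2.55 and 2.16. Ntrk2 in microglia fell by 0.38 with Aβ42 and was 0.01 with Aβ40.

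For the IGF family, the IGF-1 receptor Igf1r rose where its ligand fell: in astrocytes from a mean of 22.7 CPM to 39.6 CPM with Aβ42 and 42.4 CPM with Aβ40 (log2 fold changes 0.79 and 0.88, edgeR adjusted p = 6.59e-04 and 3.20e-04), and in microglia from 27.2 CPM to 33.8 CPM and 39.3 CPM (0.31 and 0.53, edgeR adjusted p = 0.0494 and 0.00477). The microglial Aβ42 call was lost in DESeq2's Wald test (adjusted p = 0.0697). Igf2r rose in microglia by 1.10 and 0.98 on the log2 scale. Insr rose by 0.58 in astrocytes with Aβ42 and fell by 0.64 in microglia with Aβ42.

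VEGF receptors were higher in control microglia, with Flt1, Kdr, Flt4, Nrp1 and Nrp2 all called lower in control astrocytes than in control microglia (log2 differences -6.35, -3.52, -4.99 and -2.70 for Flt1, Kdr, Nrp1 and Nrp2, with 3 counts of Flt4 over the astrocyte controls). In microglia, where Vegfa rose, Flt1 averaged 157 CPM in controls, 37.2 CPM with Aβ42 and 72.0 CPM with Aβ40 (log2 fold changes -2.12 and -1.13, edgeR adjusted p = 1.99e-07 and 5.13e-05), and the fibrils differed (-0.99, edgeR adjusted p = 0.00660). Kdr, the main signalling receptor in endothelium, fell by 1.74 and 0.97 and Nrp1 by 2.57 and 2.38, whereas Nrp2 rose from a mean of 246 CPM to 708 CPM and 850 CPM (1.52 and 1.79). In astrocytes Flt1 rose with Aβ42 (0.94), and Kdr, Nrp1 and Nrp2 did not pass with either fibril.

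Of the remaining receptors, Egfr, which binds HB-EGF, rose in astrocytes by 1.59 and 1.53 on the log2 scale, and in microglia it did not pass with Aβ42 (0.30) and rose with Aβ40 (0.83). Erbb4, the other receptor of HB-EGF, fell by 0.94 in microglia with Aβ42 and rose by 0.73 with Aβ40, a difference between fibrils of -1.67 (SE 0.23, edgeR adjusted p = 0.00530). The FGF receptor Fgfr1 fell in all 4 comparisons (-0.71 and -0.57 in astrocytes, -1.60 and -1.71 in microglia) and Fgfr2 rose in all 4 (0.55, 0.50, 0.81 and 1.03). Pdgfra, the receptor of PDGF-A and a marker of oligodendrocyte precursors, fell in all 4 (-0.76, -0.78, -0.86 and -0.83), while Pdgfrb rose in astrocytes (1.34 and 1.27) and fell in microglia (-1.45 and -1.25). For CNTF, gp130 (Il6st) rose in all 4 (1.22, 1.19, 0.60 and 0.96), and Cntfr did not pass in astrocytes (-0.65 and -0.74) and rose in microglia (0.54 and 0.80).

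**Figure D4:**
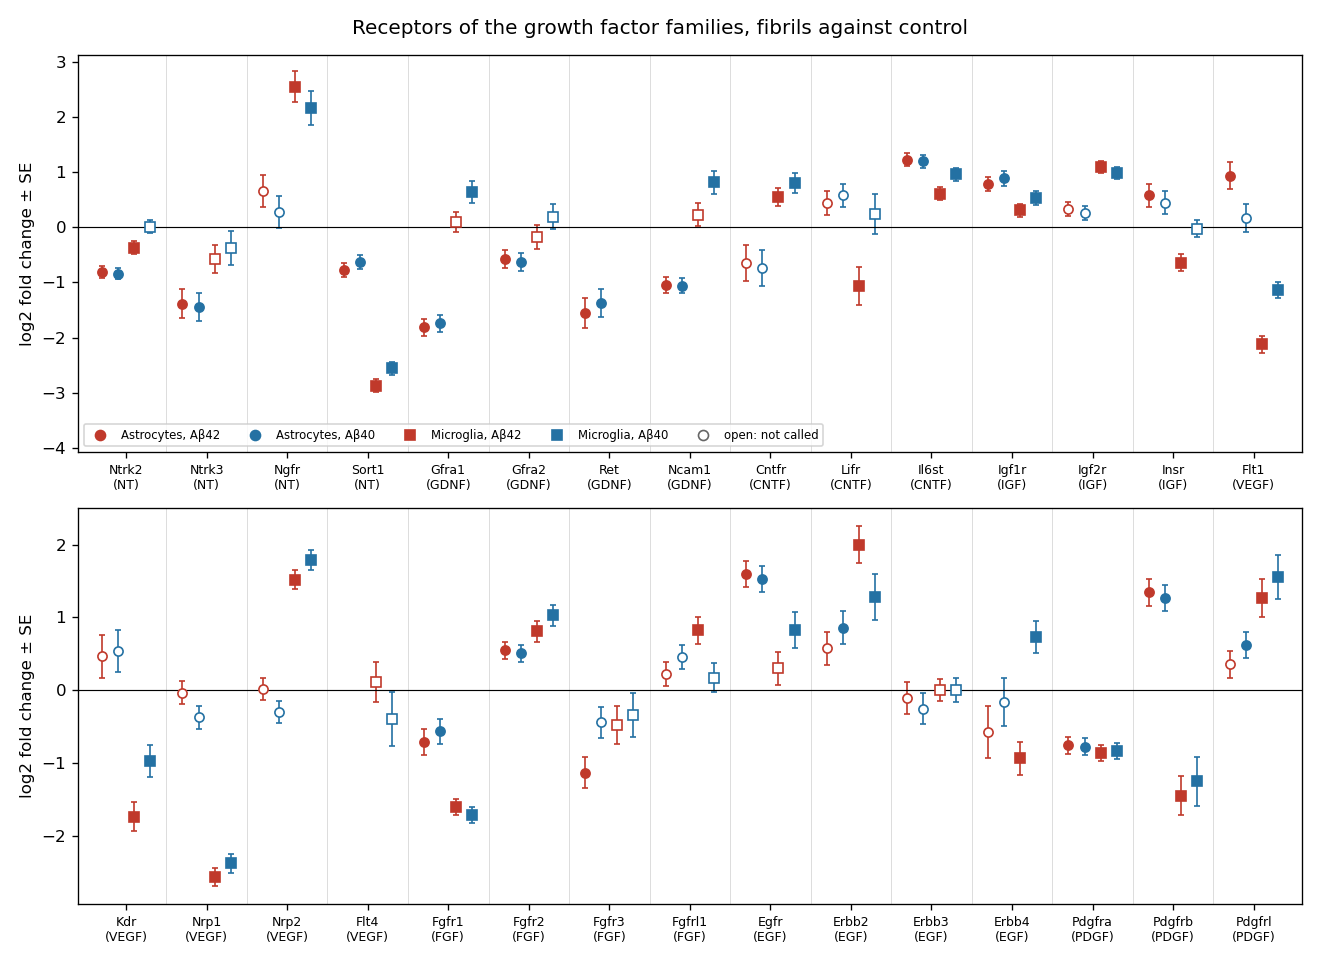
Log2 fold change against control (vertical axis, bars ± SE) of every tested receptor of the 8 families, named with its family on the horizontal axis (NT, neurotrophin), in astrocytes (circles) and microglia (squares) with Aβ42 (red) and Aβ40 (blue). Filled symbols passed an edgeR adjusted p of 0.05, open symbols did not, and receptors below the count filter in a cell type have no symbol there. The GDNF receptors lie below 0 in astrocytes, and Flt1, Kdr and Nrp1 lie below 0 in microglia.

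Genes that receptor tyrosine kinase signalling is known to induce as feedback or effectors (13 listed, all tested) were read in the same way. In astrocytes 1 rose and 4 fell with Aβ42, beside 16.5% and 20.4% of all genes, and 1 rose and 5 fell with Aβ40, beside 14.9% and 18.4%. The ERK phosphatase Dusp6 was the one that rose (1.62 and 1.34), and Spry1 had the lowest log2 fold change (-1.83 and -2.13). In microglia 2 rose and 5 fell with Aβ42, beside 27.1% and 26.6%, and 1 rose and 4 fell with Aβ40, beside 19.6% and 21.4%. The ETS factor Etv5 was lowest there, from a mean of 229 CPM to 39.3 CPM and 44.1 CPM (-2.55 and -2.37, edgeR adjusted p = 1.32e-09 and 3.09e-09), and the highest called genes were Etv4 with Aβ42 and Il17rd with Aβ40 (1.23).

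The genes whose pattern over the 18 libraries was most like that of each tested member were ranked by Pearson's r of log2 levels. These r values are descriptive, since the libraries share cell type and treatment. For Igf1 they were Ly86, Gna15 and Myo7a (r = 0.99, 0.98 and 0.98), and within the astrocyte and microglial libraries alone r was 0.95 to 0.99 for each. For Vegfa they were Nppb, F13a1 and Anxa2 (r = 0.95, 0.93 and 0.93), for which r was 0.97 to 0.98 within microglia and 0.19, 0.31 and -0.27 within astrocytes. Hbegf was most like Ppic, Pde9a and Cav1 (r = 0.99, 0.99 and 0.98), Cntf like Spag6 and Slc25a18 (0.99 each), Pdgfa like Sbno2, Socs1 and Eml2 (0.97, 0.95 and 0.95) and Fgf2 like Vegfc, Ociad2 and Pipox (0.98, 0.98 and 0.97).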

How the data were processed

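Messenger RNA of 18 samples (3 in each of 6 groups) was made into TruSeq stranded libraries and sequenced as paired reads of 150 cycles. Per the labels and the study's methods, the authors aligned reads to the rat rn5 genome with STAR, and Salmon and DESeq2 are also named in the submitters' processing notes; versions, the annotation and the strand setting are not given in the sources used here. The deposited values are raw counts of reads per gene symbol, 1 table per library, with reads assigned to no gene taking 26.0 to 34.2% in astrocytes and 21.7 to 24.5% in microglia, left out here. Groups came from the labels' cell type and treatment.

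Counts were fitted with edgeR 4.0.16 in R 4.3.3 (glmQLFit and glmQLFTest, TMM scaling, filterByExpr with a minimum count of 10), in 1 fit for the 9 libraries of each cell type and 1 for all 18 over the 16704 symbols both tables share, and p-values were adjusted by Benjamini-Hochberg over all genes tested. The SE and 95% interval of a log2 fold change were taken from the test. Levels of one scale are not compared with those of another. A floor of 3 counts over the 3 libraries of a group covers counting error in that group only, and exact 95% intervals cover counting error only. On simulated counts with the same spread for all genes, 99%, 100% and 98% of 200 genes changed 8-fold were called in the astrocyte Aβ42, microglia Aβ42 and Aβ42 interaction comparisons. In these, 13, 11 and 12 unchanged genes were called too. Changes smaller than 8-fold were not simulated, so this says nothing of members with smaller changes. Alternatives were DESeq2 1.42.0 (size factors, Wald test), library totals, other count filters, the replicate number as a block, the compared groups alone and each library left out.

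Described genes were the 9 members, all tested receptors, the called gene with the highest and the lowest log2 fold change of each other role list in each comparison, and the 3 genes most like each member (log2 of CPM plus 0.5). Exceptions are named as chosen after their values were seen. Some genes that the rule takes in are not reported here. The members and lists were chosen with earlier results of these data known. Of the 92 listed pathway symbols 90 were in each cell type's tables, since Vegfd and its older symbol Figf each appear for 1 cell type. Protein sequences were not used here, and genomic sequence was used only as the RefSeq windows before transcription starts.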

Additional observations from a re-analysis of the deposited data

Results flagged for a closer look

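Members whose fibril response differed between astrocytes and microglia by the test of that difference were looked at again, with values given as the astrocyte minus the microglial log2 fold change in edgeR. With Aβ42 these were Vegfa (-2.55) and Fgf2 (-5.32), and with Aβ40 Vegfa (-1.63), Fgf2 (-5.23), Hbegf (-1.38) and Cntf (0.93). The Vegfa values and the Hbegf value kept their call with each of the 12 libraries left out. The Fgf2 values are not sizes, because microglial controls had 0 counts, and the Aβ40 call was lost in 3 of 12 such fits. The Cntf call was lost in 6 of 12. The difference between the fibrils also differed between the cell types for Hbegf (1.03), in a comparison added after the data were seen.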

How the results depend on the processing

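The labels give replicate numbers 1 to 3 in each group. Deviations from group means were correlated between libraries of different groups. Over same-numbered pairs the mean correlation was -0.17 in astrocytes (range -0.59 to 0.40) and 0.00040 in microglia (-0.21 to 0.24). Over pairs with different numbers it was 0.095 (-0.52 to 0.58) and 0.0043 (-0.23 to 0.24). Whether same-numbered libraries share a culture or batch was not tested. With replicate as a block, members called higher in astrocytes with Aβ42 went to 1 (Cntf was lost, edgeR adjusted p = 0.0641), members called lower in Aβ42 against Aβ40 microglia to 0, members with a higher Aβ40 response in astrocytes to 0, members called higher in the fibril difference between cell types to 0, and the Fgf2 fibril difference reversed to 0.38. DESeq2 size factors gave 2 members lower in astrocytes with Aβ40. Library totals gave 1 member higher in astrocytes with Aβ42, 2 lower with Aβ40, and 0 with a higher Aβ40 response in astrocytes.

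DESeq2's Wald test gave 2 members higher and 2 lower in astrocytes with Aβ40. For Aβ42 against Aβ40 in astrocytes it gave 1 member higher, with 5 pathway genes higher and 1 lower. For the fibril difference between cell types it gave 1 member lower, with 3 pathway genes higher and 1 lower. The share of all genes called by DESeq2's Wald test was not counted, nor was it for most other alternatives. These counts therefore have no background beside them. A minimum of 10 counts in every library removed Igf1, leaving 0 members lower in astrocytes with either fibril and 0 lower in control astrocytes against microglia, and it left 1 member with a lower Aβ42 response in astrocytes. With no filter, 5 members were called higher in microglia with each fibril, beside 23% and 15.6% of all genes. With the compared groups alone, 1 member rose in astrocytes with Aβ42, 1 was higher with Aβ42 than Aβ40, and 0 were lower with Aβ42 than Aβ40 in microglia.

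At a fold of 5 or more, members higher were 0 in astrocytes with either fibril, 1 in microglia with Aβ42 and 0 with Aβ40, 0 higher and 0 lower between the fibrils in microglia, 3 in control astrocytes against microglia, 0 higher and 1 lower for the Aβ40 response difference and 0 for the fibril difference.

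With each library left out, the range in astrocytes was 2 to 3 members higher with Aβ42, and 1 to 2 higher and 1 to 2 lower with Aβ40. The Aβ42 count stayed at 2 or more where Cntf was lost, so a member not tested with all libraries was called there. Its value is not reported here. The range was 4 to 5 higher in control astrocytes against microglia, and 1 to 2 higher and 0 to 2 lower between the fibrils in microglia. For the Aβ42, Aβ40 and fibril differences between cell types it was 0 to 1 higher in each. Lower members there were 2 to 3, 2 to 4 and 0 to 1. Log2 differences that changed sign, none of them called, were Fgf2 in astrocytes with Aβ40 (-0.074 to 0.32), Igf1 (-0.37 to 0.61) and Pdgfa (-0.14 to 0.037) between the fibrils in astrocytes, Cntf in microglia with Aβ40 (-0.093 to 0.44), and, between cell types, Cntf for Aβ42 (-0.15 to 0.34), Igf1 for Aβ40 (-0.18 to 0.59) and Fgf2 for the fibril difference (-1.07 to 0.35). The causes were not tested, beyond the genes or libraries a setting removes. Bdnf, Gdnf, Ntf3 and microglial Fgf2 had too few counts to pass the filter, and the part of depth in this was not tested.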
